A study of Mus musculus with 4 samples.

Results

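The mitochondrial ribosomal protein genes are the nuclear genes that encode the protein part of the mitochondrial ribosome (mitoribosome), and their RNA was compared between Beko cells kept in a Notch pathway inhibitor and Beko cells from which the inhibitor had been washed out. Members were chosen by name alone, as every gene whose symbol begins with Mrpl or Mrps followed by a number, which gave 77 of the 24391 genes of the deposited table. Of these, 50 encode proteins of the large subunit and 26 proteins of the small subunit. The remaining one, Mrps36, carries the name but is now assigned to the α-ketoglutarate dehydrogenase complex.

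Beko is a mouse progenitor T-cell line in which Notch signaling is constitutively active, and DAPT is a γ-secretase inhibitor (GSI) that blocks the cleavage by which the Notch receptor becomes an activator of transcription. The GSI condition comprised 2 libraries of cells kept in DAPT for 48 h, with fresh inhibitor given after a wash at 24 h. The washout condition comprised 2 libraries of cells that had the same 48 h of DAPT, were then washed and stayed in culture for another 24 h without it. The dose is 10 mg/ml in the library labels and 10 μg/ml in the methods of the study. Every library came from the same line, and the labels do not state whether replicates were separate cultures, so p-values measure only the spread between these libraries. The washout cells were also washed once more and cultured 24 h longer than the GSI cells, and no untreated library was analysed here. Release from the inhibitor and the longer culture therefore cannot be told apart. In bulk RNA of this kind, fewer cells of a type and less RNA per cell cannot be told apart either.

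Mitochondria keep a small genome of their own, which encodes core subunits of the respiratory chain, and the mitoribosome exists to translate these few messages. Its ribosomal RNAs are encoded in the mitochondrion, whereas its proteins are encoded in the nucleus, made in the cytosol and imported. Around these RNAs the mitoribosome assembles a larger set of proteins than its bacterial relative, some inherited from the bacterial ancestor and others found only in mitochondria. Growing and activated lymphocytes are known to raise mitochondrial translation.

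The reads counted on genes were 29671401 and 13716199 in the GSI libraries and 36364200 and 14451995 in the washout libraries. In any single library, each member held between 125 and 6134 reads. The Notch targets Hes1, Dtx1, Ptcra and Il2ra were all higher upon washout, with log2 fold changes (log2FC) of 1.42, 3.20, 2.37 and 3.19. The 13 markers of progenitor T cells summed to 7854 and 8510 CPM, the count scaled to a common library size, in GSI. Upon washout they summed to 7713 and 7765 CPM. Of these markers, 4 were higher (30.8%, near the 27.0% of all genes) and 5 lower (beside 25.4% of all genes). The sums thus hold opposite changes, from a log2FC of -1.67 for Gata3 to 2.37 for Ptcra. Dntt went from 1479 and 1531 CPM to 462.3 and 517.4 CPM, and Notch1 from 505.6 and 636.5 CPM to 1184 and 1332 CPM. Markers of other lineages also moved with the condition. The 4 mast cell markers summed to 274.5 and 166.7 CPM under GSI and to 45.7 and 30.5 CPM upon washout, carried by Kit and Cpa3, while Fcer1a and Mcpt4 stood at 0 in all libraries. The macrophage markers summed to 49.0 and 38.1 CPM under GSI and to 5.49 and 4.99 CPM upon washout, carried by Itgam alone, with Lyz2 at 0. Counts of Rn45s, the ribosomal RNA precursor, took 1.84% and 2.69% of the reads in the GSI libraries and 1.44% and 1.66% in the washout libraries. The B cell and erythroid lists each summed to at most 1.41 CPM in any library. The part of these markers and of Rn45s in the results below was not tested.

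Upon washout of GSI, the mitoribosome genes rose as a broad group by a moderate amount. Their summed RNA was 2732 and 2698 CPM in the GSI libraries and 4329 and 4330 CPM in the washout libraries, a ratio of 1.59 between the condition means. As a share of all counted reads, before any normalization factor, the sum was 0.294% and 0.287% in GSI and 0.405% and 0.403% upon washout, a ratio of 1.39. The replicates lay close together on both scales, and the conditions did not overlap. The difference between the ratios comes from the TMM factors of 1.08 and 1.06 in the GSI libraries and 0.936 and 0.930 in the washout libraries.

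Gene by gene, 65 of the 77 members were higher upon washout and 0 were lower by an adjusted p-value below 0.05 (edgeR's quasi-likelihood test on the whole table with Benjamini-Hochberg adjustment over 12266 genes). All 77 had passed the filter on low counts. Among all genes tested, 27.0% were called higher and 25.4% were called lower, and among the 6822 genes with a mean CPM in the range of the members 31.3% were called higher and 25.1% lower. The median log2FC of the members was 0.70, a 1.62-fold difference, with quartiles of 0.44 and 0.83, whereas the median over all genes tested was -0.01. A log2FC above 0 was found for 76 of the 77 members and for 49.5% of all genes. Both washout libraries lay above both GSI libraries for 75 members, beside 38.2% of all genes, and the exceptions were Mrpl27 and Mrpl52. The study also asked for a log2FC above 1 or below -1. With that threshold added, 13 members were higher and 0 lower, beside 7.74% and 11.7% of all genes. With libraries scaled by their total counts alone, the higher members were 53, beside 18.9% of all genes, the median of the members was 0.50 and that of all genes was -0.21.

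**Figure D1:**
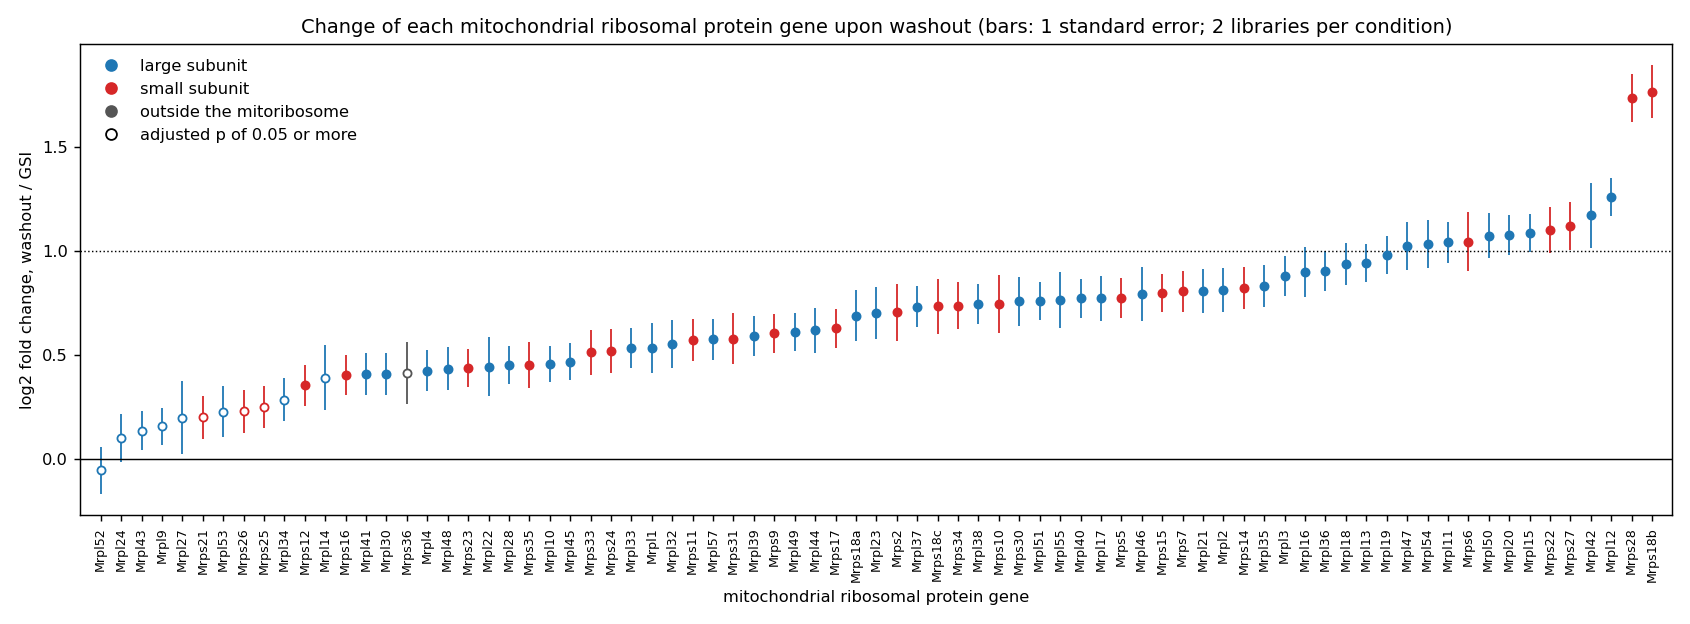
Log2 fold change of each of the 77 members (y axis, washout over GSI) in increasing order along the x axis, with 1 standard error as a bar, 2 libraries per condition, color for the subunit and open symbols for an adjusted p-value of 0.05 or more. All but Mrpl52 lie above 0, most lie between 0.4 and 1.1, and Mrps28 and Mrps18b stand above the rest at 1.73 and 1.76.

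In the large subunit, 42 of 50 members were higher, with a median log2FC of 0.72, and 8 of them were past both thresholds. In the small subunit, 23 of 26 were higher, with a median of 0.67, and 5 were past both. The summed level of the large subunit was 1840 and 1800 CPM under GSI and 2934 and 2939 CPM upon washout. That of the small subunit was 881 and 887 CPM under GSI and 1381 and 1378 CPM upon washout. The ratios were 1.61 and 1.56. With a correction of the counts for GC content and exon length, the medians were 0.72 and 0.56. Divided by descent, 25 of the 30 large-subunit members with a bacterial homolog were higher (median 0.77), as were 16 of the 19 known only from mitochondria (median 0.62). In the small subunit the same division gave 14 of 15 (median 0.70) and 7 of 9 (median 0.51). The S18 family, Mrps18a, Mrps18b and Mrps18c, was left out of this division. No test of the difference between these classes was made.

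Promoters are shown for members at both ends of the range. The windows run from 250 bases before to 50 bases after the RefSeq transcription start (RefSeq table of build GRCm38.p6, each found once and without mismatch in mm9), and 68 of the 77 members had at least 1 such entry. Mrpl13, Mrpl15, Mrpl19, Mrpl38, Mrpl4, Mrpl54, Mrps28, Mrps34 and Mrps35 had none. Motifs were searched by exact letters, so a stretch that differs from a motif by 1 base was not counted. Mrps18b is the member with the largest difference. Its window lies at chr17:36053336-36053635 on the minus strand of mm9, and none of the 5 motifs searched is in it. Mrpl12 is the large-subunit member with the largest difference, its window lies at chr11:120345701-120346000 on the plus strand, and it also holds none of them. Mrps27, at chr13:100114491-100114790 on the plus strand, holds an ETS motif at position -49 and a YY1 motif at position 15 from the start. Mrpl52, at chr14:55045496-55045795 on the plus strand, is the member with the lowest log2FC and holds an ETS motif at position 2. Capitals mark these motifs, and each sequence is written 5′ to 3′ along the strand of its gene.
Mrps18b: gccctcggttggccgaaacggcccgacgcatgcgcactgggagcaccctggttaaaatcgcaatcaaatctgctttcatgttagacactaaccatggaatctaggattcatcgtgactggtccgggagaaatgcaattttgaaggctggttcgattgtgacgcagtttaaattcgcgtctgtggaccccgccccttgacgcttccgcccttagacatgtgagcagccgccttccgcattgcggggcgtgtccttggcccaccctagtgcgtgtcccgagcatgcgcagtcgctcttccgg
Mrpl12: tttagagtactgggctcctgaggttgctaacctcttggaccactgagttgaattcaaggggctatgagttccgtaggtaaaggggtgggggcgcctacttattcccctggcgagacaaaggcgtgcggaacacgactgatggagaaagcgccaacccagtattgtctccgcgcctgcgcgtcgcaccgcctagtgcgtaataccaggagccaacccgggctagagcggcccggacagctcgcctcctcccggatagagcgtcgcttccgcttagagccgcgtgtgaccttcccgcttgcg
Mrps27: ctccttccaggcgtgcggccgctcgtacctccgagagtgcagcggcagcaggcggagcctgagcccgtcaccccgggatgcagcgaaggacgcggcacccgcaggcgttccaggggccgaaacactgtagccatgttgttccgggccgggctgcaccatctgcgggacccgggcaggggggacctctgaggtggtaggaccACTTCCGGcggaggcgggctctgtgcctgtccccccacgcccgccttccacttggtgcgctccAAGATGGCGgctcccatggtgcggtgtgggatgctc
Mrpl52: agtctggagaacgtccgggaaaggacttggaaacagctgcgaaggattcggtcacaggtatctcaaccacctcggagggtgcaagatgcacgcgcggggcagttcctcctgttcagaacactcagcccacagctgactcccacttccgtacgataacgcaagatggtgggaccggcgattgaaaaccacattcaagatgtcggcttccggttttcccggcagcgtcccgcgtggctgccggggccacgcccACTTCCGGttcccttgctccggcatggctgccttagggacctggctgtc

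Mrps18b, at chr17:36047324-36053334 on the minus strand, encodes one of the S18 paralogs of the mitoribosome. Its level was 12.0 and 13.8 CPM under GSI and 44.8 and 42.0 CPM upon washout. The conditions are far apart relative to their replicates, with a log2FC of 1.76 (SE 0.13, adjusted p = 0.000345 by edgeR's quasi-likelihood test). The genome holds another sequence 99.9% identical to its transcript, and HISAT2 was set to report 1 alignment per read, so that reads of this gene may be divided between both places. Vertebrates have 3 S18 paralogs, of which Mrps18c takes the place of the bacterial S18, Mrps18b sits elsewhere in the small subunit and Mrps18a, despite its name, belongs to the large subunit. Mrps18c was at 18.9 and 21.4 CPM under GSI and at 31.3 and 35.8 CPM upon washout, and Mrps18a was at 20.4 and 23.4 CPM and then at 34.4 and 36.1 CPM. Both rose without overlap, with log2FC values of 0.73 (SE 0.13, adjusted p = 0.00499) and 0.69 (SE 0.12, adjusted p = 0.00467). As counted, Mrps18b was the lowest of the 3 in the GSI libraries and the highest upon washout on the CPM scale. It also held these places per kb of exon, where it moved from 11.1 and 12.8 to 41.5 and 39.0 CPM per kb. Of the 3 it alone has a near-identical genomic copy, so its place among them is uncertain.

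Mrps28, the mitochondrial counterpart of the bacterial S1 protein, had the second-largest difference. It lies at chr3:8802146-8923918 on the minus strand and was at 19.5 and 22.1 CPM under GSI and at 65.9 and 72.0 CPM upon washout. Both washout values lay well above both GSI values, and the log2FC was 1.73 (SE 0.12, adjusted p = 0.000334). The next was Mrpl12 at chr11:120345927-120350379 on the plus strand, which encodes the protein of the stalk that calls elongation factors to the large subunit. Its values of 43.2 and 43.7 CPM under GSI and of 106.4 and 101.3 CPM upon washout gave a log2FC of 1.26 (SE 0.09, adjusted p = 0.000345). Mrpl11, whose protein forms the base of that stalk, was also past both thresholds, with a log2FC of 1.04 (adjusted p = 0.000581).

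Mrpl42, a large-subunit protein known only from mitochondria, showed the widest gap between replicates of any member in GSI. It was at 29.6 and 22.3 CPM under GSI and at 62.0 and 55.4 CPM upon washout. The conditions still did not overlap, with a log2FC of 1.17 (SE 0.16, adjusted p = 0.00163). Over all members the median gap between the replicates was 0.06 on the log2 scale in either condition, and the gap of Mrpl42 in GSI was 0.41.

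Mrps27 and Mrps22, which are small-subunit proteins without a bacterial homolog, followed. Mrps27, a protein with pentatricopeptide repeats, was at 19.3 and 21.8 CPM under GSI and at 44.7 and 44.3 CPM upon washout (log2FC 1.12, SE 0.11, adjusted p = 0.000729). Mrps22 was at 24.6 and 23.4 CPM under GSI and at 54.2 and 48.8 CPM upon washout (log2FC 1.10, SE 0.11, adjusted p = 0.000681). In both genes the replicates lay within a few CPM of each other. The remaining 4 of the 10 largest differences were 3 large-subunit genes and Mrps6, the homolog of bacterial S6. Mrpl15 (48.0 and 50.4 CPM, then 103.2 and 105.4 CPM), Mrpl20 (43.8 and 48.0 CPM, then 96.2 and 97.1 CPM) and Mrpl50 (28.8 and 28.8 CPM, then 64.0 and 56.9 CPM) had log2FC values of 1.08, 1.07 and 1.07. Mrps6 was among the members with the lowest counts, at 8.53 and 8.57 CPM under GSI and 17.6 and 17.7 CPM upon washout (log2FC 1.04), and shares 159 exon bases with Slc5a3 on the same strand. Beside these, Mrpl54 (1.03) and Mrpl47 (1.02) lay just past the fold threshold, together with Mrpl11.

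**Figure D2:**
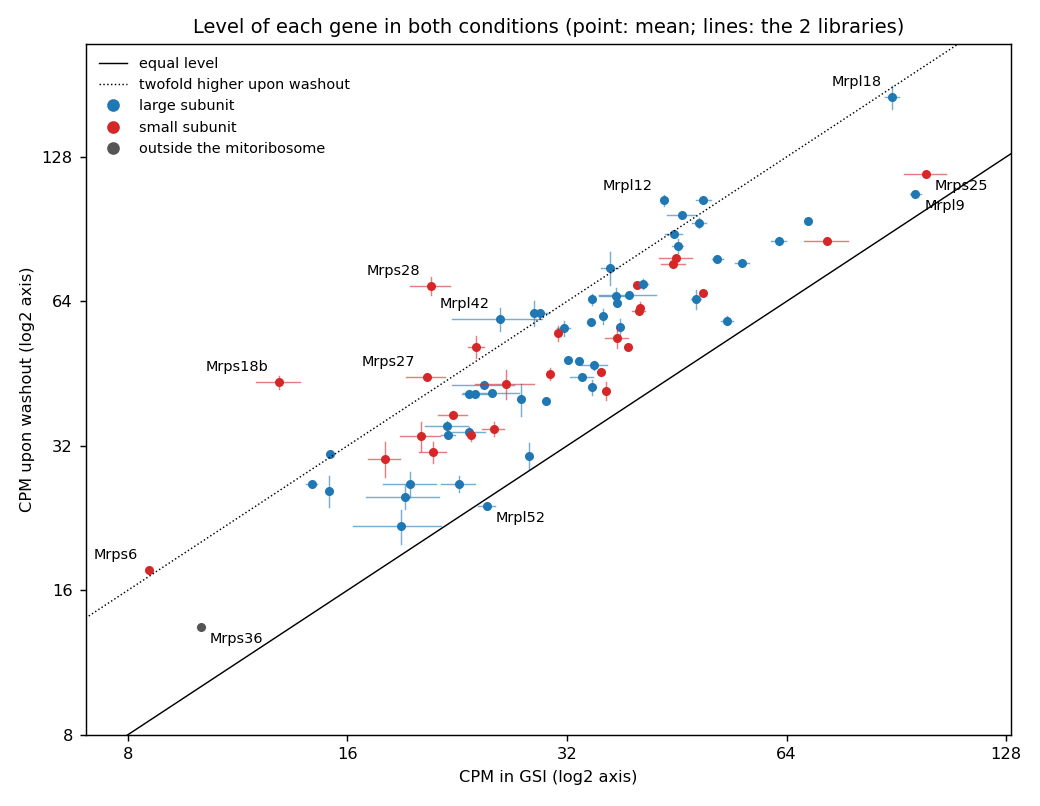
CPM of each member in GSI (x axis) and upon washout (y axis), both on log2 axes, with the mean of the 2 libraries as a point and the libraries as the ends of the lines. Most members of both subunits lie between the lines of equal and of 2-fold level over the whole range of abundance, and Mrps18b and Mrps28 lie far above the 2-fold line.

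The 12 members that did not pass the test had log2FC values from -0.05 to 0.41. Mrpl52, a mitochondrion-specific large-subunit protein, was at 25.5 and 24.2 CPM under GSI and at 23.8 and 24.2 CPM upon washout (log2FC -0.05, SE 0.11, adjusted p = 0.72). Its libraries overlapped, and it was the sole member with a log2FC below 0. Mrpl24, a homolog of the bacterial L24 that starts large-subunit assembly, was at 28.3 and 28.4 CPM and then at 28.7 and 32.4 CPM (log2FC 0.10, SE 0.12). Mrpl43 was at 54.0 and 52.1 CPM and then at 59.5 and 57.1 CPM (log2FC 0.14, SE 0.09). Mrpl9 was at 94.5 and 97.7 CPM and then at 105.3 and 108.9 CPM (log2FC 0.16, SE 0.09). In these 3 genes both washout libraries were above both GSI libraries, but by a margin that the test did not separate from the spread (adjusted p = 0.487, 0.256 and 0.181 by edgeR's quasi-likelihood test). Mrpl27, whose bacterial homolog reaches toward the peptidyl transferase center, was at 21.5 and 16.3 CPM and then at 23.6 and 20.0 CPM (log2FC 0.20, SE 0.17). Its GSI replicates differed by more than the conditions did. The other members that missed the threshold were Mrps21 (0.20), Mrpl53 (0.23), Mrps26 (0.23), Mrps25 (0.25), Mrpl34 (0.29), Mrpl14 (0.39) and Mrps36 (0.41). Of these, Mrpl34 and Mrps36 had the smallest adjusted p-values, 0.0547 and 0.057. Mrps36 was at 9.94 and 10.2 CPM under GSI and at 13.3 and 13.5 CPM upon washout, and 7 genomic sequences of up to 99.7% identity to its transcript make its count uncertain.

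Levels of members were compared with each other per kb of exon. Over the 4 libraries the highest means were those of Mrpl18 (107 CPM per kb), Mrpl20 (95.2), Mrpl54 (92.5), Mrpl33 (85.1) and Mrps16 (79.7). Mrpl18, the homolog of the bacterial L18 that binds ribosomal RNA in the central protuberance, had the highest counts of all members in the washout libraries and rose from 87.4 and 91.2 CPM to 180.2 and 161.2 CPM (log2FC 0.94). The lowest means per kb were those of Mrpl17 (8.44), Mrpl1 (7.88) and Mrpl47 (6.83). Their annotated exons are long, at 3848, 4295 and 3364 bases beside a median of 1214 bases for the members. The part of this length in their place was not tested. The spread of levels between members was thus wider than any difference between conditions, although the proteins enter the particle in equal numbers with few exceptions such as the stalk protein Mrpl12. Among the lowest per kb, Mrpl47 rose (log2FC 1.02), as did Mrpl17 (0.77) and Mrpl1 (0.53). At the other end Mrpl33 (0.53) and Mrps16 (0.40) rose by less than the median of the members. The calls of Mrps16 and Mrpl1 were lost with total count scaling (log2FC 0.20 and 0.34) and without GSI replicate 1, that of Mrps16 also without GSI replicate 2, and that of Mrpl33 with the GC and length correction (log2FC 0.15). Mrps30, named for the small subunit but part of the large one, was at 42.4 and 35.4 CPM and then at 65.3 and 66.7 CPM (log2FC 0.76, SE 0.12, adjusted p = 0.00277).

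Gene length, GC content and level were set beside the size of the difference. Across the 77 members, which share the same libraries, log2FC correlated with exon length at a Pearson r of 0.01 and a Spearman rho of 0.16, with GC content of exons at -0.04 and -0.08, and with mean log2 CPM at 0.06 and 0.12. For the longest intron these values were 0.40 and 0.16, and Mrps28, with an intron of 97571 bases, is at the far end of that axis. When the counts were corrected for GC content and exon length, 62 of 76 members were higher and 7 past both thresholds, and the median of the members was 0.62 beside 0.07 for all genes. Their exons were short, with a median of 1214 bases beside 3038 bases for 10886 other genes tested, and had a similar GC content (51.5% beside 50.8%). The alignment allowed introns of up to 3000 bases. The 32 members with a longer intron had a median log2FC of 0.69, and the 45 without had a median of 0.70. The 16 members with a near-identical genomic copy (at least 90% identity over at least 50% of the transcript) had a median of 0.53, beside 0.73 for the 61 without, and 13 and 52 of them were higher. Because the strand setting of the counting is not stated, the 13 members that share exon bases with a counted gene on the other strand are uncertain. Of these, 8 were higher, and among the other 5 were Mrps25, which shares 3533 bases with Nr2c2, and Mrpl24, which shares 594 bases with Rrnad1.

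Some mitoribosome genes start close to a neighbor transcribed the other way, and the share of all genes that do so was not counted. Pairs with starts within 1000 bases of each other numbered 28, and the neighbor was itself tested in 26 of them. In some pairs the genes overlap at their starts, as Mrpl18 and Tcp1 do (start-to-start distance -644 bases). In 1 pair, Mrpl46 and Mrps11, both genes are members and both were higher (log2FC 0.79 and 0.57). Of the 25 other neighbors, 11 were higher (44%, beside 27.0% of all genes), 3 were lower (beside 25.4% of all genes) and 11 passed no threshold. Their median log2FC was 0.25, whereas that of the members in these pairs was 0.73, and across the 25 pairs the values of member and neighbor correlated at a Pearson r of 0.08 and a Spearman rho of 0.11. Mrps18b starts 45 bases from Ppp1r10, a regulatory subunit of protein phosphatase 1, which was at 107.8 and 110.8 CPM under GSI and at 87.0 and 94.7 CPM upon washout (log2FC -0.27, adjusted p = 0.0514). The Ppp1r10 values point the other way from those of Mrps18b, without passing the threshold. Mrps27 starts 108 bases from Ptcd2, which also encodes a mitochondrial RNA-binding protein, and this pair rose together (log2FC 1.12 and 0.84). Mrps12 and Sars2, a mitochondrial tRNA synthetase, start 171 bases apart and had log2FC values of 0.35 and 0.76. In contrast, Mrpl41 rose (log2FC 0.41) while its neighbor Pnpla7, a lysophospholipase, was lower by a log2FC of -1.20, and Mrpl44 rose (log2FC 0.62) while Wdfy1 was lower by a log2FC of -0.57.

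**Figure D3:**
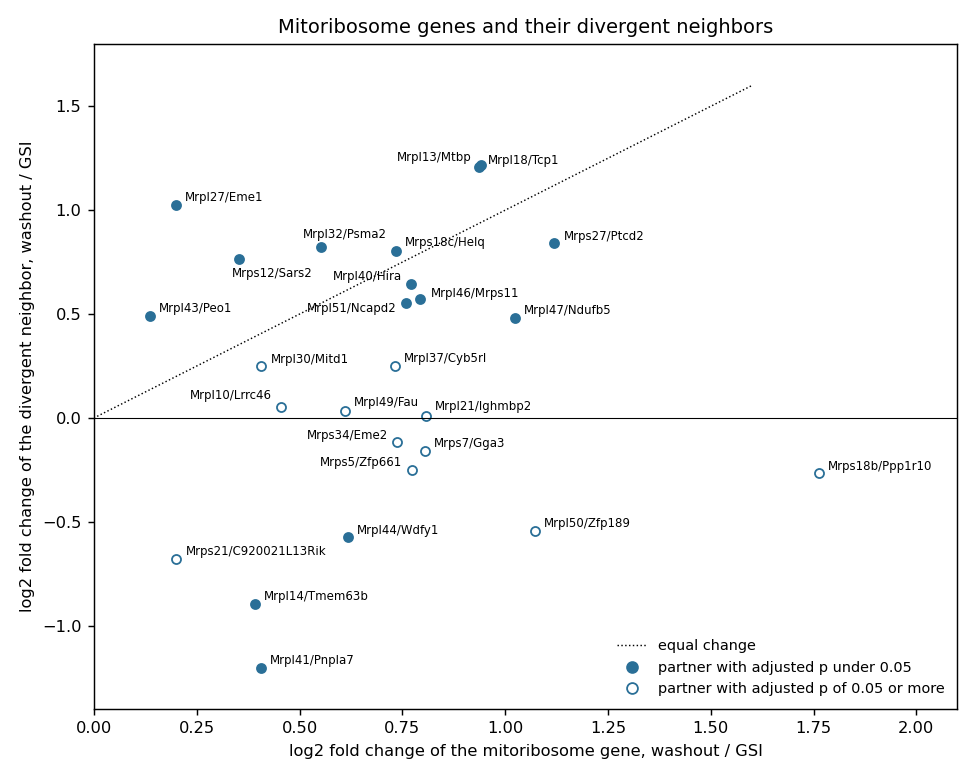
Log2 fold change (washout over GSI) of 26 members (x axis) and of the gene that starts within 1000 bases on the other strand (y axis), with filled symbols for neighbors that passed the threshold of 0.05 and a dotted line of equal change. Neighbors spread from -1.20 for Pnpla7 to 1.22 for Mtbp with no alignment along the dotted line, and Ppp1r10 lies below 0 beside Mrps18b.

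In the 74 promoter windows of the 68 matched members, motifs were searched by exact letters on both strands. The YY1 motif AAGATGGCG was in 10.8% of them, beside 1.40% of all 32851 RefSeq windows of the same length and 3.06% of the 11407 windows of other genes tested. The ETS motif ACTTCCGG was in 16.2%, beside 3.89% and 8.38%. The palindromic core motif of NRF1 was in 4.05%, beside 0.971% and 2.16%. NRF1, YY1 and ETS factors are known activators of nuclear genes for mitochondrial proteins. The E-box CACGTG, which Myc can bind, was in 9.46%, beside 7.15% and 9.93%, and the core TGGGAA of RBPJ, the DNA-binding partner of Notch, was in 25.7%, beside 25.6% and 22.9%. None of the motifs contains the whole of another on either strand, and whether their positions in a window overlap was not counted. Among the matched members, those with the motif and those without had median log2FC values of 0.78 and 0.61 for YY1 (8 genes with it). For ETS (12 genes) they were 0.63 and 0.62, and for RBPJ (19 genes) 0.57 and 0.70. For NRF1 they were 0.55 and 0.69 and for the E-box 0.81 and 0.60, with only 3 and 5 genes that hold the motif. These are descriptions of letters in a window and were not tested.

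Mitoribosomal proteins with other names behaved alike in direction. Of 6 such genes, 5 were higher (83.3%, beside 27.0% of all genes), with a median log2FC of 0.61. Ptcd3, a small-subunit protein with pentatricopeptide repeats, was at 78.7 and 75.1 CPM under GSI and at 173.7 and 150.2 CPM upon washout (log2FC 1.07, adjusted p = 0.000678). Ict1, the peptide-release protein built into the large subunit, had the smallest value (log2FC 0.27, adjusted p = 0.0545).

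Assembly of the particle needs GTPases, helicases and enzymes that modify its RNA. Of 23 genes for these, 8 were higher (34.8%, near the 27.0% of all genes and the 31.3% of genes in the CPM range of the members). Lower were 0, beside 25.4% of all genes, and the median log2FC was 0.27. Noa1, a GTPase needed for small-subunit assembly, was at 17.3 and 15.9 CPM and then at 43.5 and 49.8 CPM (log2FC 1.48, adjusted p = 0.000452). The RNA-binding Fastkd2 (1.30), the ribosomal RNA methyltransferases Rnmtl1 (1.23) and Mrm1 (1.22) and the dimethyltransferase Tfb1m (0.89) were also higher, whereas the methyltransferase Ftsj2 had a log2FC of -0.32 that did not pass the test (adjusted p = 0.246).

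Of 15 translation factors and partners, 8 were higher (53.3%, beside 27.0% of all genes) and 0 lower (beside 25.4%), with a median of 0.44. The elongation factors Tufm (0.96), Tsfm (0.77) and Gfm1 (0.97) and the initiation factor Mtif3 (0.69) were among them, and the largest difference was that of Lrpprc, which stabilizes mitochondrial mRNA, from 91.6 and 100.2 CPM to 252.0 and 243.8 CPM (log2FC 1.37, adjusted p = 0.000345). The membrane insertase Oxa1l had a log2FC of 0.01. Of 17 mitochondrial aminoacyl-tRNA synthetases, 10 were higher (58.8%, beside 27.0% of all genes) and 0 lower (beside 25.4%), with a median of 0.62. Yars2 for tyrosine had the largest difference (log2FC 1.50, adjusted p = 0.000462). Lars2 for leucine was at 49.1 and 315.3 CPM under GSI and at 145.6 and 141.8 CPM upon washout, so that its GSI replicates lay on either side of the washout values (log2FC -0.33, SE 0.72). Of 7 genes of mitochondrial transcription, 2 were higher (28.6%, near the 27.0% of all genes) and 0 lower (beside 25.4%), with a median of 0.21. Tfam, which packages the mitochondrial genome and starts its transcription, was at 54.8 and 59.2 CPM and then at 120.9 and 111.1 CPM (log2FC 1.03, adjusted p = 0.000612), while Mterf2 had a log2FC of -0.37 (adjusted p = 0.0789).

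The proteins of the cytosolic ribosome are the closest comparison. Of 72 such genes, 44 were higher (61.1%, beside 27.0% of all genes) and 0 lower (beside 25.4%), with a median log2FC of 0.39. Past the fold threshold were 0, beside 7.74% of all genes called higher with it. Their summed level was 29520 and 28490 CPM under GSI and 36290 and 39560 CPM upon washout, a ratio of 1.31. As a share of counted reads it was 3.18% and 3.03%, then 3.40% and 3.68%, a ratio of 1.14. Rps2 had the largest difference, from 248.2 and 265.0 CPM to 473.0 and 546.3 CPM (log2FC 0.99, adjusted p = 0.00114). Rps27 had the smallest, with a log2FC of -0.14. Both ribosomes thus moved in 1 direction, the mitochondrial one with the larger median, and the difference between the lists was not tested.

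**Figure D4:**
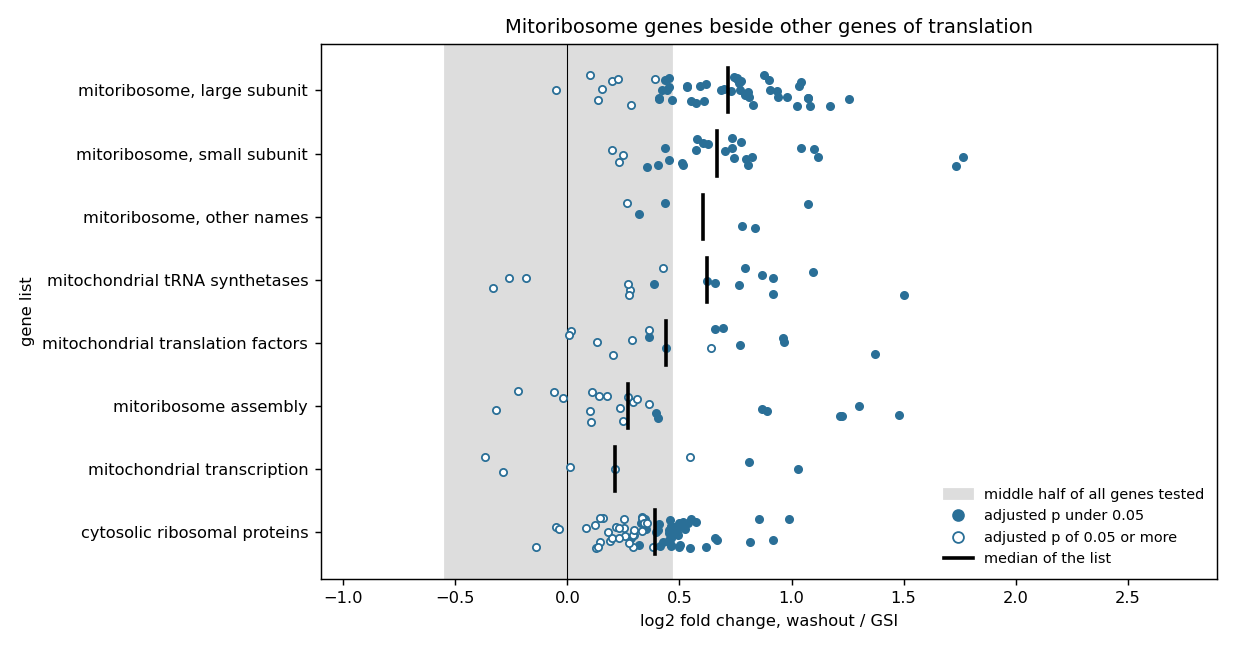
Log2 fold change (x axis, washout over GSI) of the genes of both mitoribosome subunits and of 6 other gene lists (y axis), with filled symbols for genes that passed the threshold of 0.05, a black bar for the median of each list and a gray band for the middle 50% of all genes tested. The medians of the subunits, 0.72 and 0.67, lie to the right of the band. So do those of mitochondrial tRNA synthetases (0.62) and of mitoribosomal proteins with other names (0.61). The medians of translation factors (0.44), assembly genes (0.27), transcription genes (0.21) and cytosolic ribosomal proteins (0.39) lie within it.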

How the data were processed

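RNA-Seq libraries (stranded, ribosomal RNA removed) were trimmed by the authors with trimGalore, aligned to mm9 with HISAT2 2.2.1 (1 alignment per read, introns up to 3000 bases) and counted with summarizeOverlaps. The values deposited by the authors are raw counts per gene, without pooling or normalization, and 0 columns were left unmatched. Strand setting and overlap mode are not given in the sources used here. Conditions came from the labels. Counts were tested with edgeR 4.0.16 in R 4.3.3 (filterByExpr, TMM, estimateDisp, quasi-likelihood test, no covariates, 2-sided, Benjamini-Hochberg adjustment over 12266 genes). The biological coefficient of variation was 0.121. CPM use TMM-scaled library sizes, and SE is log2FC divided by the square root of F. Replicates correlated at 0.990 (GSI) and 0.988 (washout) in log2 CPM. Scripts were tested on simulated counts. Of 100 genes changed by a log2 value of 0.5 this test called 8, and of 100 changed by 1 it called 78, with 7 false calls. Far fewer genes were changed there than were called in the data, so these rates need not carry over.

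Members, roles, gene lists and alternatives were chosen with earlier results of these data known. Named were the 10 members with the largest and the 5 with the smallest log2FC, those not called, the 5 highest and 3 lowest per kb, the S18 family, Mrps30, Mrps36, and the extremes of each list. Others, such as neighbors and the remaining members past both thresholds, were named after their values were seen. Positions come from GENCODE vM1, which held 76 members by symbol and Mrpl57 by its older symbol Mrp63. Alternatives were DESeq2 1.42.0, RLE or total count scaling, other filters, a replicate block, an adjustment of the counts for GC content and exon length, glmTreat, and leaving out each library.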

Additional observations from a re-analysis of the deposited data

How the results depend on the processing

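The members called higher were 65, and 52 to 64 when 1 library was left out, 52 without GSI replicate 1. They were 34 when the test asked for a log2FC beyond 0.5 (glmTreat), and 0 were lower in every other alternative (not counted for glmTreat). Excepting glmTreat, 48 members were higher in all 13 settings, the reported one included. Members past both thresholds, 13 as reported, were 3 with total count scaling, 7 with a correction for GC content and length (76 members) and 8 with this and the replicate block. A share of all genes called higher by adjusted p-value is given only for the reported fit and total count scaling. Under the other settings the counts have no such share beside them. The median log2FC of all, large-subunit and small-subunit members was 0.50, 0.52 and 0.47 with total count scaling (all genes -0.21), 0.74, 0.75 and 0.70 with no low-count filter, 0.66, 0.68 and 0.63 with at least 10 counts in every library, and 0.72, 0.73 and 0.68 with DESeq2. It was 0.62, 0.72 and 0.56 with the GC and length correction (all genes 0.07), and 0.61, 0.72 and 0.56 with the block added. Leaving out 1 library gave 0.64 to 0.67 for all, 0.67 to 0.74 for the large and 0.61 to 0.67 for the small subunit. Total count scaling turned Mrpl27 (-0.00098), Mrpl9 (-0.043), Mrpl43 (-0.063) and Mrpl24 (-0.097) below 0, and the GC and length correction did so for Mrpl24 (-0.051, and -0.059 with the block). The cause was not tested. With this correction 62 members were higher, with 7 calls lost (Mrpl22, Mrpl30, Mrpl32, Mrpl33, Mrps31, Mrps33 and Mrpl57, which could not be entered) and 4 gained (Mrpl14, Mrpl34, Mrps25 and Mrps26).

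The replicate number is shared between conditions, but nothing in the labels ties it to a batch, and with 2 pairs the correlation of same-numbered deviations (0.50) does not settle a pairing. With the replicate block, 70 members were higher and 0 lower, 13 of them past both thresholds. No share over all genes was taken for the block, so the 70 cannot be read against the 27.0% of the reported fit. The 5 calls gained were Mrpl14, Mrpl34, Mrps25, Mrps26 and Mrps36. Libraries of 13716199 reads or more limit the counts of the least abundant members, of which Mrps6 had 125 reads in 1 library.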

Other observations

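Mrps28, one of the 2 members with the largest difference, was looked at for its neighbors after its values were seen. On mm9 chromosome 3 it lies at 8802146 to 8923918, 4707 bases from Tpd52 at 8928626 to 9004723, which rose from 2.44 and 1.92 CPM to 3.82 and 5.21 CPM (log2FC 1.01, adjusted p = 0.0283 by edgeR's quasi-likelihood test). On its other side, 135106 bases away, lies Hey1 at 8663362 to 8667039, a transcriptional repressor known as a Notch target, which was at 16.2 and 18.1 CPM under GSI and at 179.9 and 199.7 CPM upon washout (log2FC 3.47). All 3 genes were higher upon washout and are on the minus strand. Near Mrps18b, the gene Atat1, chosen in the same way, was lower (log2FC -1.46, adjusted p = 0.00356). Whether these genes share regulation was not tested.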
